A study of Capra hircus with 7 samples.

Results

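Among the 17374 genes measured, 68 were at least 2-fold higher in all 4 libraries of goat mammary gland cells with altered cirRNA28250 than in all 3 control libraries, whether the circular RNA had been knocked down or overexpressed. These genes were chosen by their FPKM (fragments scaled to transcript length and to sequencing depth): the lowest of the 4 treated libraries had to reach 2 FPKM and 2 times the highest control. Of the 17374 genes, 0.391% met this rule. The mirror rule, with the lowest of the 3 controls at 2 FPKM or more and at 2 times the highest treated library or more, chose 5 genes, 0.0288% of all. Both counts depend on the scaling: after quantile normalization 34 genes met the first rule and 16 the mirror rule, and after median ratio scaling 46 and 9 did. Since treated and control libraries chose the genes, the height of that difference is described below and was not tested.

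The cells came from the mammary gland of the Lanshan dairy goat, were grown in 3D culture and, in the treated groups, had been given virus. The groups were cKDmix, in which virus inhibited cirRNA28250 (2 libraries); cRNA28250, in which virus carried it (2 libraries); c3NC, the control listed with the knockdown (2 libraries); and c5NC, the control listed with the overexpression (1 library). The labels do not spell out what the controls received, and each control was matched to a treatment by the order in the design text. The labels also do not tell if the libraries of a group stem from different cultures or animals. The p-values here therefore measure the spread between libraries only. The circular RNA itself was not analysed here.

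Circular RNAs are closed loops made when a downstream splice site is joined to an upstream one, and they are known for binding microRNAs and proteins. The mammary gland holds milk-forming luminal cells, contractile myoepithelial cells, and a stroma of fibroblasts, fat cells and vessels. Of the epithelial markers, KRT5, KRT8, KRT18 and EPCAM were near 0, at 0.53 FPKM or less in each library, while some others were higher. DCN, a fibroblast proteoglycan, was between 5251 and 8882 FPKM in the treated libraries and between 5264 and 7270 FPKM in the controls. The luminal list, of which 6 of 20 measured genes passed the filter on low values, summed to 30.2 to 64.3 FPKM in the treated libraries, against 30.9 to 98.2 FPKM in the controls. The luminal gene with the highest mean was ESR1, and the highest single value in the list was 44.6 FPKM. The highest library of the list was c5NC. Of its 6 tested genes, limma called 3 lower in c3NC minus c5NC, against 3.07% of all tested genes. The basal myoepithelial list, which holds actin-binding genes that smooth muscle and fibroblasts also use, summed to 1470 to 2477 FPKM in the treated libraries, against 274 to 2154 FPKM in the controls, with c5NC the lowest. The labels name no cell type, and the part of these markers in the results was not tested. In bulk RNA, fewer cells of a type and less RNA per cell cannot be told apart.

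Between 10896 and 11870 genes reached 1 FPKM in a library, and read depth is unknown because the table holds no counts. The cRNA28250 replicates lay farther apart (SD of the replicate difference 0.586 on the log2(FPKM + 1) scale) than those of cKDmix (0.306) and c3NC (0.300). Differences below are on that log2(FPKM + 1) scale, where low genes show less than their full change. The median difference of the 68 raised genes was 1.81 in cKDmix minus c3NC and 2.0 in cRNA28250 minus c5NC, with ranges of 0.91 to 4.76 and 0.73 to 6.25. Over all 12180 genes tested the medians were 0.30 and 0.16; quantile normalization brought these to −0.02 and −0.00, and the medians of the raised genes to 1.48 and 1.88. At least 1 control was listed at 0 for 12 of the 68, so their log2 values depend on the pseudocount of 1.

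**Figure D1:**
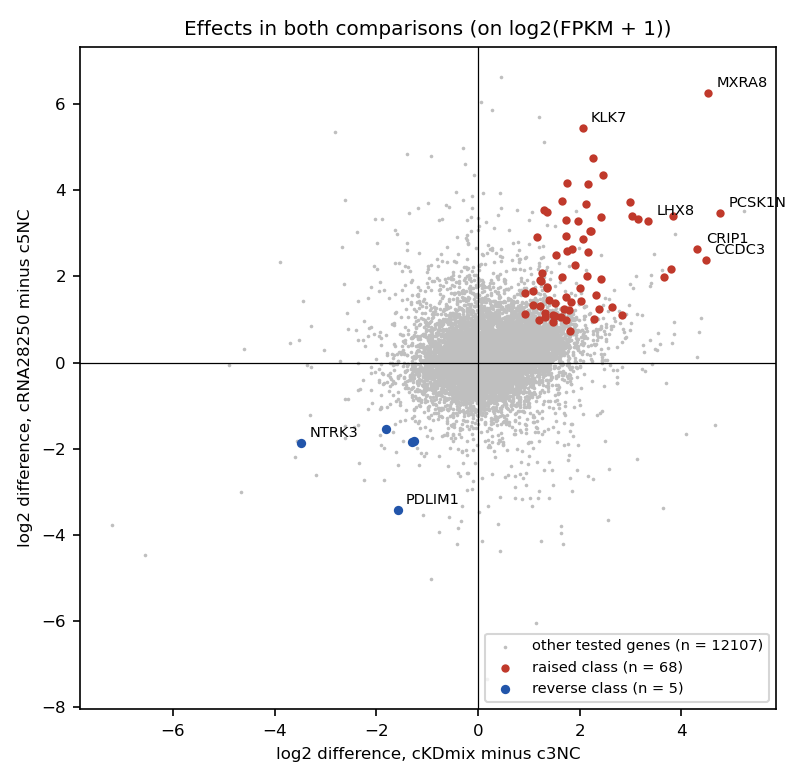
Difference of each tested gene in knockdown (x axis, cKDmix minus c3NC) and in overexpression (y axis, cRNA28250 minus c5NC), both on the log2(FPKM + 1) scale. The 68 raised genes (red) and the 5 reverse genes (blue) sit in opposite quadrants because the rule placed them there; MXRA8 lies farthest up.

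Of the 68 raised genes, 49 had a gene symbol, 10 only a locus number and 9 no match in the RefSeq annotation. The mean of the treated libraries was under 10 FPKM in 38, between 10 and 100 FPKM in 28 and above that in 2, SRGN and HSP90B1. Per treated library, the median of the 68 was 6.235 to 9.87 FPKM, against 8.27 to 9.955 FPKM over all tested genes. In 19 genes all 3 controls were under 1 FPKM. The lowest treated library was 4 or more times the highest control in 24 genes and under 2.5 times in 28, with a median ratio of 2.85. The genes are described below by what their products do; the roles were assigned after the values were seen, and members outside the rule for naming genes were likewise named after their values were seen.

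**Figure D2:**
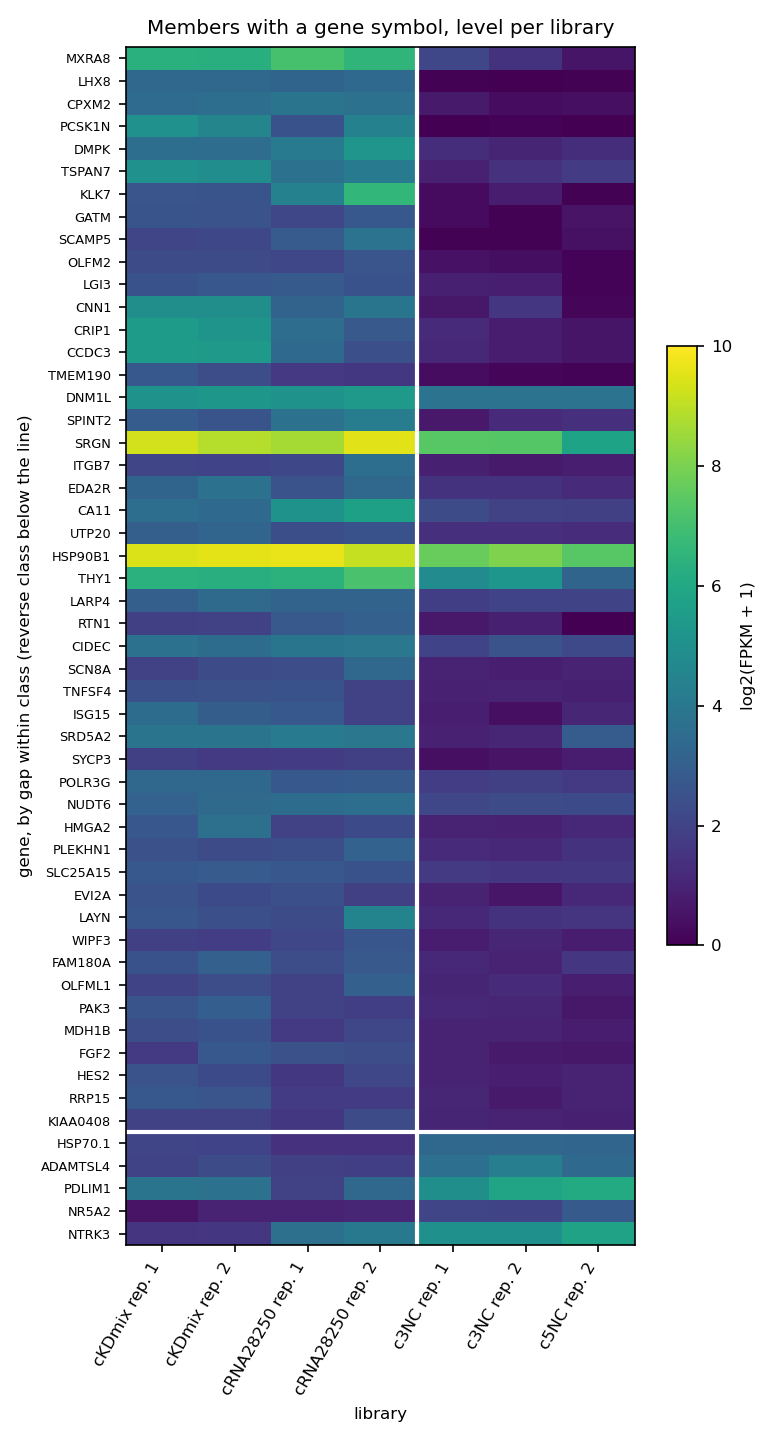
Level of each gene with a symbol on the log2(FPKM + 1) scale (colour), in the 7 libraries (columns, treated left of the white line, controls right), ordered by the gap between the lowest treated and the highest control library. Raised genes stand above the horizontal line and the 5 reverse genes below it; 1 raised gene is not shown.

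Surface, matrix and secreted proteins were the largest role, with 13 of the 49 genes. MXRA8, a membrane protein of stromal cells that some alphaviruses use to enter, had 81.1 and 76.6 FPKM in cKDmix and 134 and 92.8 FPKM in cRNA28250, against 3.37 and 1.76 FPKM in c3NC and 0.48 FPKM in c5NC. All treated libraries exceeded all controls by far, and the overexpression libraries were the highest. CPXM2, a secreted protein of the carboxypeptidase family, had 10.4 and 11.3 FPKM in cKDmix and 13.3 and 12.6 FPKM in cRNA28250, against 0.65 and 0.27 FPKM in c3NC and 0.32 FPKM in c5NC, with treated libraries close to each other. SRGN, the proteoglycan of secretory granules, had 642 and 475 FPKM in cKDmix and 398 and 751 FPKM in cRNA28250, against 169 and 163 FPKM in c3NC and 54.5 FPKM in c5NC. It was among the most abundant members, and its c5NC library was the lowest of the controls. THY1, a surface glycoprotein that marks fibroblasts, had 83.1 and 75.4 FPKM in cKDmix and 84.3 and 139.9 FPKM in cRNA28250, against 27.1 and 36.7 FPKM in c3NC and 8.36 FPKM in c5NC, again with c5NC below both c3NC libraries.

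KLK7, a serine protease of shedding skin, had 5.21 and 4.98 FPKM in cKDmix and 19.95 and 97.6 FPKM in cRNA28250, against 0.24 and 0.73 FPKM in c3NC and 0.05 FPKM in c5NC. Within the treated groups its 2 overexpression libraries differed widely, and both lay above both knockdown libraries. SPINT2, a membrane inhibitor of serine proteases, had 6.6 and 5.09 FPKM in cKDmix and 12.7 and 17.6 FPKM in cRNA28250, against 0.59 and 1.26 FPKM in c3NC and 1.58 FPKM in c5NC, with the same order of the 2 treated groups. TSPAN7, a tetraspanin, had 32.7 and 29.01 FPKM in cKDmix and 12.5 and 15.9 FPKM in cRNA28250, against 0.91 and 1.72 FPKM in c3NC and 2.38 FPKM in c5NC. CCDC3, a secreted coiled-coil protein, had 44.1 and 40.1 FPKM in cKDmix and 9.82 and 4.4 FPKM in cRNA28250, against 1.2 and 0.68 FPKM in c3NC and 0.48 FPKM in c5NC. For this pair the order was the other way round, with both knockdown libraries above both overexpression libraries.

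OLFM2, a secreted olfactomedin-domain glycoprotein, had 4.06 and 4.07 FPKM in cKDmix and 3.34 and 5.17 FPKM in cRNA28250, against 0.42 and 0.28 FPKM in c3NC and 0.08 FPKM in c5NC; the 2 treated groups overlapped each other. Its relative OLFML1 was between 2.95 and 7.28 FPKM in the treated libraries, against 0.8 to 1.36 FPKM in the controls. ITGB7, an integrin beta chain best known from lymphocytes, had 3.3 and 3.04 FPKM in cKDmix and 3.47 and 11.3 FPKM in cRNA28250, against 0.84 and 0.66 FPKM in c3NC and 0.77 FPKM in c5NC, where cRNA28250 replicate 2 alone was high among otherwise similar treated libraries. LAYN, a hyaluronan receptor, was between 3.95 and 22.02 FPKM in the treated libraries, against 1.25 to 1.89 FPKM in the controls, and its top value also came from cRNA28250 replicate 2. FAM180A, a little described secreted protein, was between 4.12 and 7.43 FPKM in the treated libraries, against 0.98 to 2.03 FPKM in the controls.

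Signals and their receptors made up 4 genes. FGF2, a growth factor for fibroblasts and vessels, had 2.23 and 5.71 FPKM in cKDmix and 4.56 and 4.11 FPKM in cRNA28250, against 1.01 and 0.63 FPKM in c3NC and 0.57 FPKM in c5NC; the treated libraries were uneven, with cKDmix replicate 1 the lowest. EDA2R, a receptor of the tumour necrosis factor receptor family and a p53 target, had 8.31 and 12.2 FPKM in cKDmix and 4.97 and 9.21 FPKM in cRNA28250, against 1.77 and 1.73 FPKM in c3NC and 1.35 FPKM in c5NC. LGI3, a secreted leucine-rich repeat protein, had 4.66 and 5.49 FPKM in cKDmix and 6.15 and 4.76 FPKM in cRNA28250, against 0.86 and 0.77 FPKM in c3NC and 0.06 FPKM in c5NC, with even values across the treated libraries and c5NC close to 0. TNFSF4, the ligand of the T-cell receptor OX40, was between 2.9 and 4.68 FPKM in the treated libraries, against 0.82 to 0.98 FPKM in the controls.

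Another 5 genes encode proteins of neurons, vesicles or excitable cells. PCSK1N, whose product inhibits a prohormone convertase, had 31.9 and 22.7 FPKM in cKDmix and 4.81 and 20.1 FPKM in cRNA28250, against 0 and 0.06 FPKM in c3NC and 0 FPKM in c5NC. It was listed at or near 0 in all controls, and cRNA28250 replicate 1 was well below the other treated libraries. SCAMP5, a secretory carrier membrane protein, had 3.22 and 3.54 FPKM in cKDmix and 6.34 and 12.8 FPKM in cRNA28250, against 0.04 and 0.04 FPKM in c3NC and 0.38 FPKM in c5NC. RTN1, which shapes the endoplasmic reticulum in neuroendocrine cells, had 2.68 and 2.96 FPKM in cKDmix and 5.93 and 7.32 FPKM in cRNA28250, against 0.6 and 0.85 FPKM in c3NC and 0 FPKM in c5NC. Both SCAMP5 and RTN1 were higher in each overexpression library than in each knockdown library. PAK3, a kinase of the brain that acts on the cytoskeleton, had 5.08 and 7.0 FPKM in cKDmix and 2.83 and 2.66 FPKM in cRNA28250, against 1.21 and 1.12 FPKM in c3NC and 0.57 FPKM in c5NC, with the knockdown libraries on top. SCN8A, a voltage-gated sodium channel, was between 2.89 and 9.21 FPKM in the treated libraries, against 0.81 to 0.97 FPKM in the controls.

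The contractile and actin-linked proteins were 5 genes as well. CNN1, the smooth muscle calponin, had 29.99 and 29.7 FPKM in cKDmix and 8.08 and 13.7 FPKM in cRNA28250, against 0.56 and 1.99 FPKM in c3NC and 0.1 FPKM in c5NC, and the treated and control libraries were far apart although the controls themselves varied. CRIP1, a LIM-domain protein linked to the actin cytoskeleton, had 43.4 and 35.1 FPKM in cKDmix and 10.9 and 5.93 FPKM in cRNA28250, against 1.33 and 0.74 FPKM in c3NC and 0.47 FPKM in c5NC. DMPK, the muscle kinase gene expanded in myotonic dystrophy, had 11.4 and 10.95 FPKM in cKDmix and 16.6 and 35.9 FPKM in cRNA28250, against 1.5 and 1.06 FPKM in c3NC and 1.46 FPKM in c5NC. Knockdown libraries were the highest for CNN1 and CRIP1, and overexpression libraries for DMPK. WIPF3, a regulator of actin assembly, was between 2.52 and 5.42 FPKM in the treated libraries, against 0.71 to 1.08 FPKM in the controls, and PLEKHN1, a pleckstrin-domain protein, was between 3.99 and 7.85 FPKM in the treated libraries, against 1.21 to 1.79 FPKM in the controls.

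Transcription and chromatin factors contributed 3 genes. LHX8, a LIM homeobox factor of oocytes and cholinergic neurons, had 9.45 and 9.3 FPKM in cKDmix and 8.45 and 9.71 FPKM in cRNA28250, against 0.04 and 0 FPKM in c3NC and 0.04 FPKM in c5NC. The 4 treated libraries were nearly equal and the controls were at or near 0. HMGA2, an architectural chromatin protein of embryonic and mesenchymal cells, was between 2.85 and 11.9 FPKM in the treated libraries, against 0.88 to 1.14 FPKM in the controls, with cKDmix replicate 2 the highest. HES2, a basic helix-loop-helix repressor, was between 2.07 and 4.85 FPKM in the treated libraries, against 0.81 to 0.95 FPKM in the controls.

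Ribosome assembly and RNA factors were 4 genes, all low. RRP15, a ribosomal RNA processing factor, had 5.82 and 5.21 FPKM in cKDmix and 2.31 and 2.38 FPKM in cRNA28250, against 1.11 and 0.65 FPKM in c3NC and 1.02 FPKM in c5NC. UTP20, part of the machinery that processes the small-subunit ribosomal RNA, was between 4.28 and 8.62 FPKM in the treated libraries, against 1.38 to 1.56 FPKM in the controls. POLR3G, a subunit of RNA polymerase III, was between 5.83 and 9.42 FPKM in the treated libraries, against 2.28 to 2.7 FPKM in the controls. In these 3 genes each knockdown library was above each overexpression library. LARP4, which binds the poly(A) tail of messenger RNAs, was between 7.23 and 9.92 FPKM in the treated libraries, against 2.58 to 3.11 FPKM in the controls.

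Metabolic enzymes and carriers formed a group of 8. GATM, which catalyses the first step of creatine synthesis, had 5.11 and 4.85 FPKM in cKDmix and 3.38 and 5.8 FPKM in cRNA28250, against 0.22 and 0.03 FPKM in c3NC and 0.43 FPKM in c5NC. CA11, a carbonic anhydrase-related protein without enzyme activity, had 11.3 and 9.62 FPKM in cKDmix and 34.5 and 49.8 FPKM in cRNA28250, against 4.03 and 2.97 FPKM in c3NC and 2.76 FPKM in c5NC, with both overexpression libraries far above the rest. CIDEC, a lipid droplet protein of fat cells, had 12.2 and 10.7 FPKM in cKDmix and 13.7 and 14.7 FPKM in cRNA28250, against 3.02 and 4.93 FPKM in c3NC and 3.61 FPKM in c5NC, and its treated libraries were even.

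SRD5A2, the steroid reductase that makes dihydrotestosterone, had 13.2 and 13.4 FPKM in cKDmix and 15.8 and 14.8 FPKM in cRNA28250, against 0.89 and 1.11 FPKM in c3NC and 6.61 FPKM in c5NC. Its c5NC library stood well above both c3NC libraries, so it entered the list by a narrow margin. NUDT6, a nudix hydrolase, had 7.77 and 9.9 FPKM in cKDmix and 10.7 and 11.2 FPKM in cRNA28250, against 3.38 and 3.83 FPKM in c3NC and 3.74 FPKM in c5NC, with each group tight. SLC25A15, the mitochondrial ornithine carrier, was between 4.72 and 6.37 FPKM in the treated libraries, against 1.96 to 2.25 FPKM in the controls, and MDH1B, a malate dehydrogenase relative, was between 2.22 and 4.78 FPKM in the treated libraries, against 0.75 to 0.95 FPKM in the controls.

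The 3 organelle, chaperone and ubiquitin-like proteins included the most abundant member. HSP90B1, the chaperone of the endoplasmic reticulum lumen, had 708 and 771 FPKM in cKDmix and 804 and 551 FPKM in cRNA28250, against 205 and 268 FPKM in c3NC and 169 FPKM in c5NC. DNM1L, the GTPase that divides mitochondria, had 33.2 and 38.6 FPKM in cKDmix and 34.5 and 40.5 FPKM in cRNA28250, against 13.02 and 12.98 FPKM in c3NC and 13.01 FPKM in c5NC. Its 3 controls were almost equal and its treated libraries were similar in both directions of treatment. ISG15, a ubiquitin-like protein induced by interferon, had 10.7 and 6.81 FPKM in cKDmix and 5.7 and 2.97 FPKM in cRNA28250, against 0.8 and 0.33 FPKM in c3NC and 1.12 FPKM in c5NC, with all treated libraries above all controls but unequal among themselves.

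The last 4 genes have no well described role in stromal cells. TMEM190, a small membrane protein, had 5.79 and 4.21 FPKM in cKDmix and 2.2 and 2.09 FPKM in cRNA28250, against 0.26 and 0.12 FPKM in c3NC and 0.06 FPKM in c5NC, with the knockdown libraries above the overexpression libraries. SYCP3, a component of the synaptonemal complex of meiosis, was between 2.21 and 2.73 FPKM in the treated libraries, against 0.33 to 0.72 FPKM in the controls. EVI2A, a membrane protein, was between 2.72 and 4.95 FPKM in the treated libraries, against 0.51 to 1.16 FPKM in the controls, and KIAA0408 was between 2.11 and 4.07 FPKM in the treated libraries, against 0.83 to 1.04 FPKM in the controls.

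**Figure D3:**
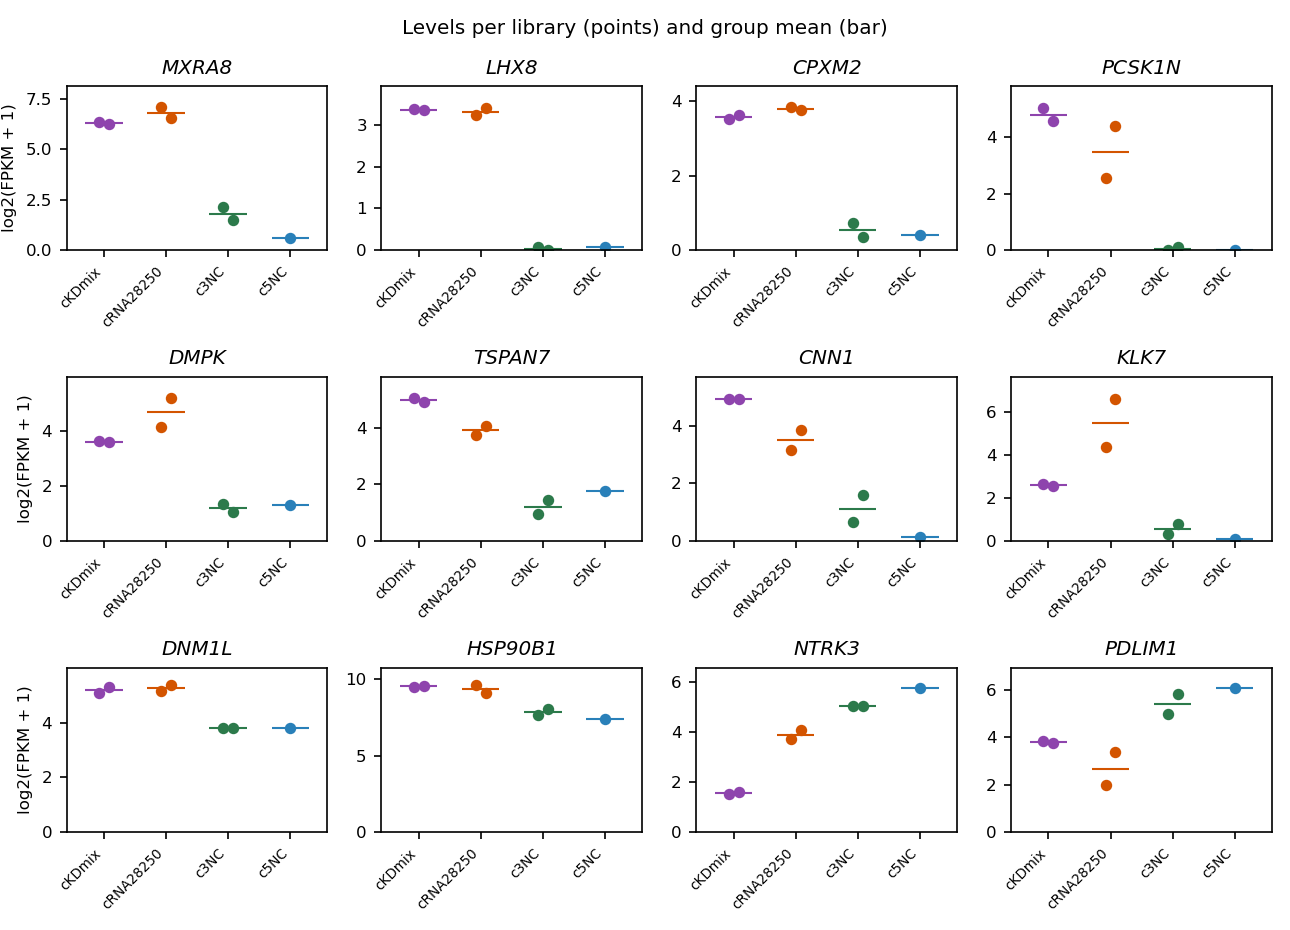
Level of 10 raised and 2 reverse genes (NTRK3 and PDLIM1) on the log2(FPKM + 1) scale, from 0 on the y axis, with 1 point per library and a bar at the group mean. Treated libraries (cKDmix and cRNA28250) stand above controls (c3NC and c5NC) in the raised genes and below them in the reverse ones, and KLK7 and PCSK1N show the widest gap between the cRNA28250 libraries.

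The 5 reverse genes were all of known function. HSP70.1, an inducible heat-shock chaperone with near-identical copies in mammals, had 3.27 and 3.06 FPKM in cKDmix and 1.71 and 1.69 FPKM in cRNA28250, against 9.06 and 8.82 FPKM in c3NC and 8.51 FPKM in c5NC. ADAMTSL4, a matrix protein that binds fibrillin microfibrils, had 3.11 and 3.86 FPKM in cKDmix and 2.75 and 2.61 FPKM in cRNA28250, against 11.7 and 18.5 FPKM in c3NC and 9.74 FPKM in c5NC. PDLIM1, a PDZ and LIM domain protein of the actin cytoskeleton, had 13.5 and 12.7 FPKM in cKDmix and 2.94 and 9.36 FPKM in cRNA28250, against 30.3 and 55.8 FPKM in c3NC and 67.5 FPKM in c5NC. All 4 treated libraries were below all 3 controls in each, by the rule.

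NR5A2, a nuclear receptor of steroid-forming and gut cells, had 0.44 and 1.0 FPKM in cKDmix and 0.93 and 1.09 FPKM in cRNA28250, against 3.31 and 3.1 FPKM in c3NC and 6.19 FPKM in c5NC. NTRK3, the receptor of a neurotrophin, had 1.84 and 1.98 FPKM in cKDmix and 11.9 and 15.7 FPKM in cRNA28250, against 31.5 and 31.5 FPKM in c3NC and 52.6 FPKM in c5NC. The knockdown libraries of NTRK3 were close to 2 FPKM and the overexpression libraries between 11.9 and 15.7 FPKM, so NTRK3 was the reverse gene with the most unequal treated groups. The median difference of the 5 was −1.58 in cKDmix minus c3NC and −1.84 in cRNA28250 minus c5NC.

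The rule cuts through a continuum. Just inside the 2-fold limit were SRD5A2, NUDT6 and KIAA0408, with the lowest treated library at 2.003, 2.03 and 2.03 times the highest control. Just outside it were METTL1, SLC41A2 and RAD50, at 1.99, 1.96 and 1.95 times. For the reverse rule, the highest treated library over the lowest control was 0.498 for NTRK3, 0.445 for PDLIM1 and 0.396 for ADAMTSL4 inside, and 0.531 for RASL11A, 0.540 for DDC and 0.554 for RHOB outside. A 3-fold limit kept 30 of the 68 raised genes, and 34 of them met the 2-fold rule after quantile normalization.

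Whether the members differ between overexpression and knockdown is a question the rule did not decide, because it set both treated groups against the controls. It was tested with limma on all 12180 genes and Benjamini-Hochberg adjustment over all of them. In cRNA28250 minus cKDmix, 5 of the 68 raised genes were called higher and 8 lower at an adjusted p under 0.05. Over all genes 5.51% were called higher and 6.15% lower, so the share of members called higher was near the background and the share called lower somewhat above it. The split over all genes was 671 higher and 749 lower, and 961 and 603 after scaling by the median ratio. The remaining 55 members were not called, which does not show that both treatments raised them equally.

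The median difference over the 68 was 0.05, against −0.14 over all tested genes, with 37 genes positive and 31 negative. A difference of less than 1 on the log2 scale was found for 55 members (80.9%) and for 90.1% of all tested genes. In 18 members both overexpression libraries were above both knockdown libraries, and in 20 both were below; over all tested genes these shares were 22.6% and 37.2%.

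KLK7 had the largest difference, 2.90 ± 0.61 (limma estimate ± SE; Benjamini-Hochberg adjusted p = 0.0255), followed among the higher genes by CA11 at 1.90 ± 0.24 (limma, Benjamini-Hochberg adjusted p = 0.00447). SPINT2 followed at 1.23 ± 0.26, SCAMP5 at 1.20 ± 0.30 and RTN1 at 0.99 ± 0.21, with limma Benjamini-Hochberg adjusted p-values of 0.0266, 0.0419 and 0.0246. Both overexpression libraries exceeded both knockdown libraries in each of these 5 genes.

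CCDC3 was the most strongly lower gene at −2.49 ± 0.33, and CRIP1 came next among genes with a symbol at −2.14 ± 0.30 (limma, Benjamini-Hochberg adjusted p = 0.00534 and 0.00659). CNN1 had −1.42 ± 0.35 and TSPAN7 −1.07 ± 0.24 (limma, Benjamini-Hochberg adjusted p = 0.0404 and 0.0299). RRP15, TMEM190 and PAK3 differed by −0.96 ± 0.21, −0.92 ± 0.22 and −0.90 ± 0.21, with limma Benjamini-Hochberg adjusted p-values of 0.0284, 0.0352 and 0.036. The eighth was a gene with only a locus number. These genes were above the controls in both treatments by the rule, and by this test their level was higher in knockdown than in overexpression. Whether the rise over the control listed with each treatment was larger in knockdown was not tested.

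These calls rest on few libraries. Without cKDmix replicate 1, 0 raised genes were called higher and 1 lower, and without cKDmix replicate 2 none was called in either direction. Without either c3NC replicate, 3 were called higher and 5 lower. Leaving out either cRNA28250 library raised the number of members called. The calls over all tested genes fell and rose in the same way, so these shifts are not particular to the members. CA11, CCDC3 and CRIP1 lost their call only when a cKDmix library was left out, among 16 alternatives.

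The genes that did not pass this test include several with tight replicates. DNM1L differed by 0.06 ± 0.18, LHX8 by −0.04 ± 0.19, OLFM2 by 0.03 ± 0.23 and LGI3 by 0.08 ± 0.21 (limma estimate ± SE). The differences of these 4 genes were smaller than their standard errors. MXRA8 differed by 0.50 ± 0.27 (limma, Benjamini-Hochberg adjusted p = 0.245), PCSK1N by −1.34 ± 0.52 (adjusted p = 0.127) and DMPK by 1.07 ± 0.33 (adjusted p = 0.0762), all short of the threshold.

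Among the 5 reverse genes, NTRK3 was higher in overexpression than in knockdown by 2.34 ± 0.19 (limma, Benjamini-Hochberg adjusted p = 0.0011), and this call held in all 16 alternatives. The other 4 were not called. PDLIM1 had −1.14 ± 0.45, HSP70.1 −0.62 ± 0.18, ADAMTSL4 −0.28 ± 0.25 and NR5A2 0.24 ± 0.22.

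**Figure D4:**
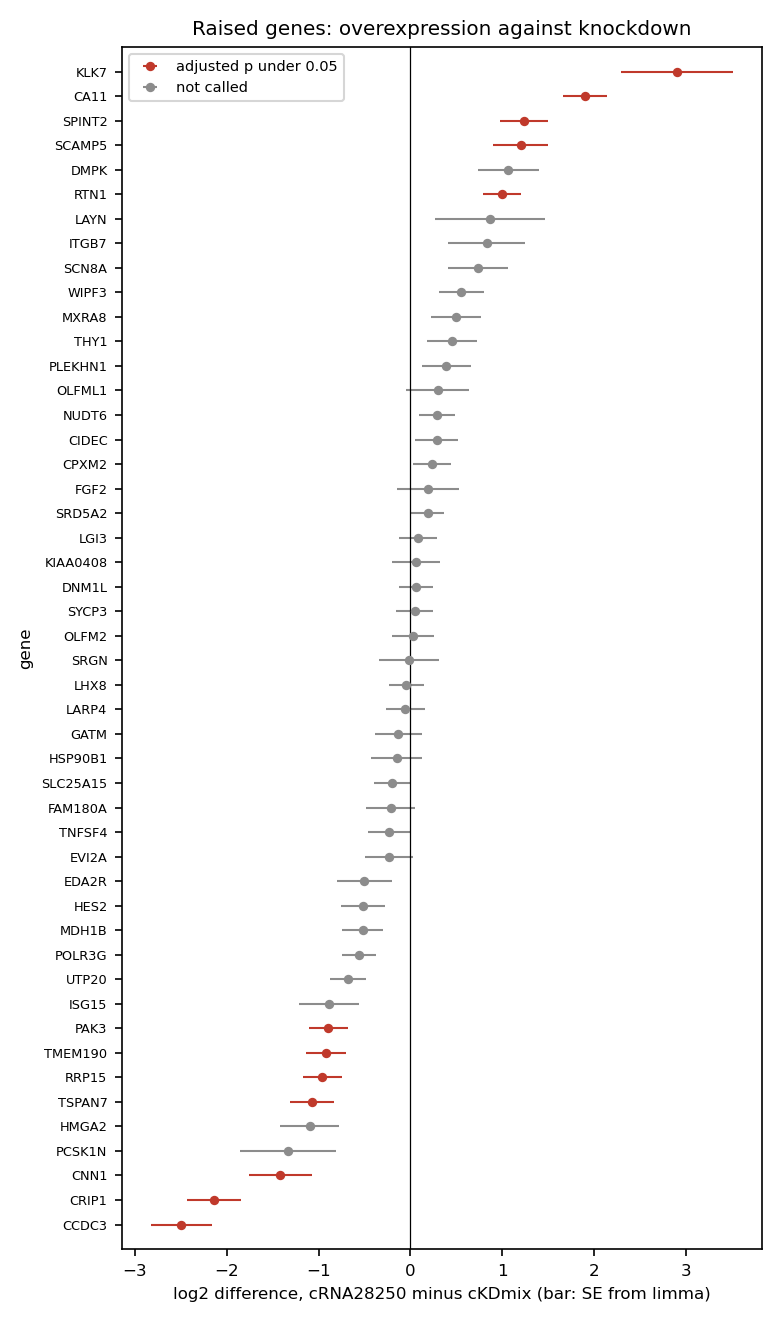
Difference between overexpression and knockdown (x axis, cRNA28250 minus cKDmix on the log2(FPKM + 1) scale, bars are limma standard errors) for the raised genes with a symbol, of which 1 is not shown. Red genes had a Benjamini-Hochberg adjusted p under 0.05: 5 lie right of 0, from RTN1 to KLK7, and 7 lie left of 0, from PAK3 to CCDC3.

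The control groups, which the rule pooled, were also compared. The rule asks for low controls: the median of the raised genes was 1.075 and 1.21 FPKM in c3NC and 0.785 FPKM in c5NC. At such levels the log2(FPKM + 1) scale leaves little room for a difference, so the number of calls partly follows from the choice. In c3NC minus c5NC, 2 of the 68 raised genes were called higher and 1 lower, where 2.73% and 3.07% of all tested genes were called, and 65 members were not called. THY1 was higher in c3NC by 1.80 ± 0.34 (limma, Benjamini-Hochberg adjusted p = 0.0245), and the other was a gene with only a locus number. SRD5A2 differed by −1.93 ± 0.22 and was lower in c3NC (limma, Benjamini-Hochberg adjusted p = 0.00372). None of the 5 reverse genes was called by limma, and 2 had an unadjusted p under 0.05. With 1 c5NC library, this comparison assumes that c5NC varies like the other groups. With a pseudocount of 0.1 more of the raised genes were called higher, and their share was then well above that of all tested genes. The count in the main fit therefore does not show equal levels of the members in the controls. Leaving out single libraries also moved the calls over all genes, up without a cRNA28250 library and down without a cKDmix or c3NC library. The number of raised genes called higher ran between 0 and 12 as single libraries were left out; it was 0 without c3NC replicate 1 and without each cKDmix library, and 12 without each cRNA28250 library.

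The 7 libraries were not equal in what they contributed. The highest value came from cRNA28250 replicate 2 in 33 of the 68 raised genes (48.5%, against 20.2% of all tested genes). It came from each cKDmix library in 14 (20.6%, against 17.1% for replicate 1 and 26.9% for replicate 2). For cRNA28250 replicate 1 it was 7 (10.3%, against 10.7%). The rule bars a control from being highest, which lifts the members' shares in the treated libraries. Over all tested genes the highest was c3NC replicate 1 in 6.5%, c3NC replicate 2 in 4.7% and c5NC in 14.0%. Replicate 2 of cRNA28250 was above replicate 1 in 51 members (75.0%, against 59.3% of all tested genes). The lowest treated library, which set the rule, was cRNA28250 replicate 1 in 27 members, cKDmix replicate 1 in 17, and cKDmix replicate 2 and cRNA28250 replicate 2 in 12 each.

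Among the controls, c5NC was the lowest in 39 members (57.4%, against 36.1% of all tested genes). The highest control, which set the rule on the other side, was c3NC replicate 1 in 26, c3NC replicate 2 in 26 and c5NC in 16. The part of these differences between libraries in the membership of single genes was not tested.

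The same measure was read in libraries that had not chosen the genes. The rule was applied to 6 libraries, and the genes so chosen were read in the remaining one. The other libraries are shared between choice and reading, so the chosen genes already have low controls and high treated libraries. The choice itself therefore favours a share above that of all genes, and the shares are a description, not a test. Without cKDmix replicate 1 the rule chose 78 genes, of which 87.2% also met the 2-fold limit in that library, against 12.1% of all genes at the floor, that is, at 2 FPKM or more in that library (for a left-out control, in every treated library). The figures for cKDmix replicate 2 were 77 genes and 88.3%, against 15.0%. For cRNA28250 replicate 2 they were 105 genes and 64.8%, against 8.65%.

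With cRNA28250 replicate 1 left out the rule chose 443 genes, of which 15.3% met the limit in that library, against 3.24% of all genes at the floor. This library therefore bounded the list more than any other. With c3NC replicate 1 left out, 93 genes were chosen and 73.1% held (3.49% of all genes at the floor), and with c3NC replicate 2 left out, 107 were chosen and 63.6% held (2.49%). Without c5NC, 149 genes were chosen and 45.6% were also 2-fold above c5NC, against 4.77% of all genes at the floor.

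**Figure D5:**
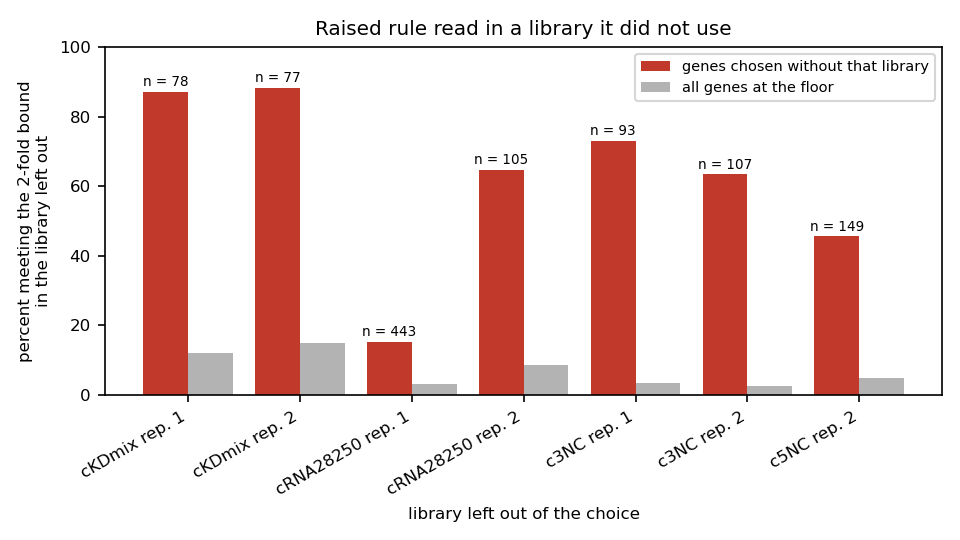
Percent of genes that met the 2-fold limit in the library left out of the choice (y axis, from 0), for genes chosen by the raised rule in the other 6 libraries (red, their number above the bar) and for all genes at the floor (grey). The red bars run from 15.3% for cRNA28250 replicate 1 to 88.3% for cKDmix replicate 2. Red above grey is favoured by the choice, since the other libraries are shared between choice and reading.

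The reading was also made between sets that share no library, a split added after the data had been seen. The 3 libraries numbered 1 hold c3NC as their only control, while the 4 numbered 2 hold c3NC and c5NC. Both sets draw on the same treated groups. The libraries numbered 1 chose 455 raised genes, of which 156 (34.3%) also met the rule in the libraries numbered 2, against 3.28% of all genes. The libraries numbered 2 chose 569, of which the same 156 (27.4%) met it in those numbered 1, against 2.62% of all genes. For the reverse rule, 8 of 62 (12.9%) and 8 of 52 (15.4%) held, against 0.299% and 0.357% of all genes. No gene went the opposite way in either reading. The 68 raised members are among the 156, and the 5 reverse members among the 8, because the rule over all libraries implies it in each set. The shares of all genes include genes under the floor, which could not meet the rule. These shares are a description, not a test.

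Each treatment against the control listed with it gives a further view, since cKDmix with c3NC and cRNA28250 with c5NC share no library. This matching of controls is an assumption. By the same 2-fold rule, 1589 genes (9.15%) were raised in cKDmix over c3NC and 735 (4.23%) in cRNA28250 over c5NC. Both lists held 149 genes, which were 9.38% of the first and 20.3% of the second, and 68 of the 149 are the members. The other 81 missed the limit against a control listed with the other treatment. In the downward direction, 319 genes (1.84%) were lowered in cKDmix and 402 (2.31%) in cRNA28250. They shared 31 genes, 9.72% of the first and 7.71% of the second, of which 5 are the reverse genes.

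Genes could also move in opposite directions. The lists of genes raised in cKDmix and lowered in cRNA28250 shared 50 genes, which were 3.15% of the 1589 and 12.4% of the 402. Those lowered in cKDmix and raised in cRNA28250 shared 47 genes, 14.7% of the 319 and 6.39% of the 735.

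Genes absent from the annotation were frequent among the members. Of the 68, 9 (13.2%) carried an identifier with no match in RefSeq, against 367 of the 17374 (2.11%). They ran from 3.44 to 18.4 FPKM in cKDmix replicate 1, 3.95 to 21.0 in cKDmix replicate 2, 4.01 to 15.1 in cRNA28250 replicate 1 and 5.32 to 51.9 in cRNA28250 replicate 2. In c3NC they ran from 0.32 to 2.68 FPKM in replicate 1 and 0.83 to 4.48 FPKM in replicate 2, and in c5NC from 0 to 0.09 FPKM.

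All 9 were lower in c5NC than in both c3NC libraries, and 8 of the 9 were highest in cRNA28250 replicate 2. Of all 367 unmatched identifiers, c5NC was below both c3NC libraries in 124 (33.8%), and in 50 of the 99 (50.5%) with every treated library at 2 FPKM or more. Of the 367, 95 were listed at 0 there against 37 to 73 in the other libraries. None of the 9 was called by limma in cRNA28250 minus cKDmix (0 with an unadjusted p under 0.05) or in c3NC minus c5NC (3 with one). The sequence and the coding capacity of these transcripts were not analysed here.

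Some members lie next to each other. With the RefSeq assembly ARS1.2, used only for names and order, 59 members of both classes could be placed. FGF2 and NUDT6 were the single pair of directly adjacent members. When only tested genes were kept, as for the flanking genes below, PLEKHN1 and ISG15 were neighbours too. NUDT6 is known as the antisense neighbour of FGF2 in other mammals; in this assembly the annotated genes do not overlap. By contrast, 5 members overlap a gene that is no member, among them PLEKHN1 with PERM1, EVI2A inside NF1, and SYCP3 with CHPT1. The strandedness of the libraries is not given in the sources used here, so reads in these overlaps cannot be told apart.

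DNM1L lay between YARS2 and FGD4, which were looked at after their values were seen. YARS2, a mitochondrial tyrosyl-tRNA synthetase, had 11.8 and 10.4 FPKM in cKDmix and 8.4 and 10.9 FPKM in cRNA28250, against 3.88 and 4.48 FPKM in c3NC and 5.12 FPKM in c5NC. FGD4 had 2.0 and 2.57 FPKM in cKDmix and 1.89 and 2.25 FPKM in cRNA28250, against 0.48 and 0.74 FPKM in c3NC and 0.85 FPKM in c5NC. In both genes all treated libraries were above all controls, as for DNM1L. Over 103 genes flanking 54 raised members, 31 (30.1%) had all treated libraries above all controls, against 19.4% of tested genes; their median differences were 0.41 in cKDmix minus c3NC and 0.35 in cRNA28250 minus c5NC.

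Of the 68 raised genes, 9 (13.2%) were in one of 36 gene lists drawn up by function or cell type, against 6.17% of all genes measured. Of these lists, with 1072 measured genes, 10 held 1 raised gene each, 2 held a reverse gene and 25 held neither; 59 of the 68 raised genes were in none. The lists were read in cKDmix minus c3NC and cRNA28250 minus c5NC, the contrasts that chose the members, so a member's own call in them supports nothing. Other genes of the lists are named after their values were seen. Over all tested genes limma called 26.8% higher and 7.56% lower in cKDmix minus c3NC, and 5.07% higher and 2.55% lower in cRNA28250 minus c5NC (Benjamini-Hochberg adjusted p under 0.05). These were 3270 higher and 921 lower calls in knockdown and 618 and 310 in overexpression, and after quantile normalization 1364 and 1378, and 414 and 350.

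ISG15 belongs to the interferon-stimulated genes. Of 38 tested genes of this list, 26 were called higher and 0 lower in knockdown, and 4 higher and 0 lower in overexpression, by limma with Benjamini-Hochberg adjustment. At an unadjusted p under 0.05, 2 and 0 were lower. The medians were 0.85 and 0.43, against 0.30 and 0.16 over all tested genes. XAF1, which antagonises apoptosis inhibitors, and EPSTI1, an interferon-induced protein, were called higher in both. XAF1 was at 1.40 and 1.55 FPKM in cKDmix and 2.64 and 2.67 FPKM in cRNA28250, against 0.28 and 0.40 FPKM in c3NC and 0.22 FPKM in c5NC. The summed level of the list was 613 to 804 FPKM in the treated libraries, against 387 to 399.8 FPKM in the controls. After quantile normalization 15 were called higher and 1 lower in knockdown. Between the treatments, ISG15 differed by −0.89 ± 0.33 in cRNA28250 minus cKDmix (limma, Benjamini-Hochberg adjusted p = 0.108) and was not called.

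EDA2R belongs to the p53 targets, of which 13 of 27 tested genes were called higher in knockdown and 0 lower, and 3 higher and 4 lower in overexpression; 1 was lower in knockdown at an unadjusted limma p under 0.05. The medians were 0.89 and 0.18. TIGAR, which limits glycolysis, was called higher in both, at 17.8 and 17.5 FPKM in cKDmix and 17.5 and 20.7 FPKM in cRNA28250, against 9.28 and 8.26 FPKM in c3NC and 5.0 FPKM in c5NC. CDKN1A, the cell-cycle inhibitor at the centre of this pathway, was called in neither, at 331 and 306 FPKM in cKDmix and 206 and 210.2 FPKM in cRNA28250, against 375 and 382 FPKM in c3NC and 325 FPKM in c5NC.

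CNN1 belongs to the smooth muscle contractile genes and to the basal myoepithelial markers. Of 22 tested contractile genes, 5 were called higher and 3 lower in knockdown, and 7 higher and 0 lower in overexpression (0 lower also at an unadjusted limma p under 0.05). TAGLN, an actin-binding partner in smooth muscle, had 1296 and 1082 FPKM in cKDmix and 986 and 1013 FPKM in cRNA28250, against 893 and 1073 FPKM in c3NC and 162 FPKM in c5NC. ACTG2, an enteric smooth muscle actin, had 258 and 218 FPKM in cKDmix and 393 and 172 FPKM in cRNA28250, against 161 and 189 FPKM in c3NC and 1.64 FPKM in c5NC. In both genes the treated libraries overlapped the c3NC libraries, and c5NC was the lowest library.

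THY1 belongs to the fibroblast markers, of which 1 of 15, THY1, was called higher and 6 lower in knockdown, and 6 higher and 0 lower in overexpression (0 lower also at an unadjusted limma p under 0.05). The list's summed level was 14450 to 21740 FPKM in the treated libraries, against 18050 to 24320 FPKM in the controls, and overlapped between them. MXRA8 belongs to the matrix glycoproteins and proteoglycans, where 9 of 56 were called higher and 12 lower in knockdown, and 13 higher and 1 lower in overexpression. SPP1 (osteopontin), ECM2 and MXRA8 were called higher in both. SPP1 had 107 and 107 FPKM in cKDmix and 71.2 and 70.2 FPKM in cRNA28250, against 56.2 and 38.2 FPKM in c3NC and 10.2 FPKM in c5NC. The overexpression calls of both lists rest on the single c5NC library. In c3NC minus c5NC the median difference was 1.155 for the fibroblast list and 0.945 for the matrix list, against −0.05 over all tested genes. The matrix list summed to 13660 FPKM in c5NC, below every other library.

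PCSK1N and NTRK3 belong to the neuronal and secretory list, with 7 of 16 called higher and 4 lower in knockdown, and 7 higher and 2 lower in overexpression. L1CAM, a neural adhesion molecule, was called higher in both, at 1.34 and 1.67 FPKM in cKDmix and 1.87 and 4.38 FPKM in cRNA28250, against 0.18 and 0.11 FPKM in c3NC and 0.17 FPKM in c5NC. Markers of Schwann and neural crest cells summed to 63.4 to 87.5 FPKM in the treated libraries, against 48.5 to 76.1 FPKM in the controls, and overlapped. CIDEC belongs to the adipocyte markers, of which 3 of 6 were called higher and 1 lower in knockdown, and 1 higher and 1 lower in overexpression; the list summed to 72.8 to 104.8 FPKM in the treated libraries, against 74.3 to 125 FPKM in the controls. FGF2 belongs to the FGF, EGF and PDGF ligands and receptors, where 8 of 31 were called higher and 5 lower in knockdown, and 4 higher and 0 lower in overexpression (3 lower at an unadjusted limma p under 0.05). Any part of a change in cell makeup in the members was not tested.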

How the data were processed

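RNA of 7 libraries was sequenced from total RNA, per the labels. The deposited table gives 1 FPKM value per gene and library, made by the authors, per the file headers. Aligner, genome build, annotation, strandedness and scaling across libraries were not given in the sources used here, and no counts were used, so read depth and counting error are unknown. Of 17374 identifiers, 17007 matched a RefSeq gene table (assembly ARS1.2, names and gene order only), and 367 did not.

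Members were chosen on raw FPKM as the report states. Members and gene lists were chosen with earlier results of these data known. Genes that reached 1 FPKM in 2 or more libraries (12180) were tested on log2(FPKM + 1) with limma 3.58.1 in R 4.3.3: 1 fit over 7 libraries, 1 mean per group, 3 residual and 4.66 prior degrees of freedom, eBayes with trend, Benjamini-Hochberg adjustment over all genes, threshold 0.05. The single c5NC library is taken to vary as the other groups do. The fit was tested on simulated data. All 68 raised and 5 reverse genes passed the filter.

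The genes named are the 20 raised members with the widest gap between the lowest treated and highest control library, members of a gene list, the 6 with the smallest p in each direction of cRNA28250 minus cKDmix, the 3 nearest the limit on either side, and the reverse genes; others were named after their values were seen. Symbols that are only locus numbers were counted and not named, and 1 gene that meets the rule is not reported here. Alternatives were another pseudocount, filter, scaling, fold limit, floor or control set, no trend, only the groups compared, a replicate block, and leaving out each library.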

Additional observations from a re-analysis of the deposited data

How the results depend on the processing

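The number of raised genes was 68 and ran from 77 to 443 when single libraries were left out. It was 34 after quantile normalization, 249 with a 1.5-fold limit, 30 with a 3-fold limit, 106 with a floor of 1 FPKM, 32 with a floor of 5 FPKM, 149 with c3NC as the only control and 460 with c5NC as the only control. The number of reverse genes was 5 and ran from 5 to 32 as libraries were left out. It was 16 after quantile normalization, 9 after median ratio scaling, 19 with a 1.5-fold limit, 0 with a 3-fold limit, 19 with c3NC only and 279 with c5NC only.

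In cRNA28250 minus cKDmix, 1420 genes were called, 852 with no filter, 669 with only the groups compared, and 53 to 3730 as libraries were left out. Raised genes called higher (5) numbered 2 with a pseudocount of 0.1, 1 with no filter, 3 with only the groups compared, and 0 to 17 as libraries were left out. Those called lower (8) numbered 3, 3 and 5 under these settings, 5 after quantile normalization, and 0 to 18 as libraries were left out. Reverse genes called (1) numbered 1 to 3 as libraries were left out. In c3NC minus c5NC, 707 genes were called, 1325 with only the groups compared, and 192 to 1879 as libraries were left out. Raised genes called higher (2) numbered 16 with a pseudocount of 0.1, 1 with no filter, 11 with only the groups compared, and 0 to 12 as libraries were left out; those called lower (1) numbered 1 to 2, and reverse genes called (0) 0 to 1. This comparison could not be made without c5NC. The cause of these shifts was not tested.

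Same-numbered libraries did not pair: correlations of deviations from the group means were −0.152 for cRNA28250 with cKDmix, 0.111 for cKDmix with c3NC and 0.283 for cRNA28250 with c3NC. With a replicate block, 1303 genes were called in cRNA28250 minus cKDmix and 443 in c3NC minus c5NC. A replicate block with the cKDmix numbers swapped, added after the data had been seen, called 2018 genes in cRNA28250 minus cKDmix, 2 reverse genes there, and 5 raised genes as higher in c3NC minus c5NC.

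For named genes, 469 alternative results kept their side of the threshold, 60 lost their call, 15 gained one and 0 called results changed direction. Of these alternatives, 14 of 544 turned the sign of a value that was not called with or without the change, all in cRNA28250 minus cKDmix, for DNM1L, FGF2, GATM, LGI3, LHX8, OLFM2 and SRGN. Low levels, 2 or fewer libraries per group and unknown depth limit what can be seen.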

Other observations

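Immediate early genes, the transcription factors and phosphatases switched on within minutes of a stimulus, contained no member of either class. Of 41 tested genes, 18 were called lower and 3 higher in cKDmix minus c3NC, and 10 lower and 0 higher in cRNA28250 minus c5NC (limma, Benjamini-Hochberg adjusted p under 0.05; 3 were higher in the second at an unadjusted p under 0.05). The medians were −0.84 and −1.25, against 0.30 and 0.16 over all tested genes. JUNB, IER2, DUSP1, ZFP36 and ZFP36L1 were called lower in both. The summed level of the list was 1464 to 3017 FPKM in the treated libraries, against 3358 and 4098 FPKM in c3NC and 6275 FPKM in c5NC. The overexpression calls of this list rest on the single c5NC library. In c3NC minus c5NC its median difference was −0.79, against −0.05 over all tested genes.

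Sterol synthesis genes also held no member. Their summed level was 190.7 to 209 FPKM in the treated libraries, against 147 to 161 FPKM in the controls, without overlap. Of 21 tested genes, 8 were called higher and 0 lower in cKDmix minus c3NC (limma; 1 lower at an unadjusted p under 0.05), and after quantile normalization 1 higher and 2 lower. In cRNA28250 minus c5NC limma called 0 of them, with 4 higher and 2 lower at an unadjusted p under 0.05. Of the 36 lists, the summed levels of all treated libraries were above all controls in 4 and below them in 3. Of single tested genes, 19.4% had all treated libraries above all controls. Among the 4, the interferon-stimulated list stayed above the controls once its raised member was left out, with 607.5 FPKM in the lowest treated library against 399 FPKM in the highest control. Another list that held a raised member overlapped the controls once that member was left out. The median over all tested genes was 8.27 to 9.955 FPKM in the treated libraries, against 7.095 to 7.665 FPKM in the controls. The part of this in the sums was not tested. These lists were read after the data had been seen.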
